A study of Mus musculus with 2 samples.

Results

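The Ly6 family surface antigens are small proteins of the mouse that sit on the outside of the cell, here Ly6a, Ly6c1, Ly6c2, Ly6e, Ly6g, Ly6i and Ly6k. A probe was taken for a member where its RefSeq accession, without the version, led to that symbol alone. This gave 6 probes for 5 of the 7 members, among 26577 probes that led to 1 symbol. Ly6a, Ly6e, Ly6i and Ly6k had 1 probe each and Ly6c1 had 2, while Ly6c2 and Ly6g had no uniquely mapped probe and were not analysed here. All 6 probes were well above background on both arrays, so the 5 members stood among 13843 genes measured on both.

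Fresh bone marrow of C57BL/6 mice was grown for 4 days, in 5% fetal bovine serum, under 2 conditions. One culture received 40 ng/ml GM-CSF, which drives growth of granulocytes and macrophages, plus 40 ng/ml IL-6, an inflammatory cytokine, and the other received 40 ng/ml GM-CSF only. The labels give the product of both cultures as myeloid-derived suppressor cells (MDSCs), immature cells able to hold back T cells, and the study compared their transcripts with and without IL-6. The total RNA of either culture went, as Cy3-labelled cRNA, on a single Agilent array, with no replicate culture. The labels describe no sorting step and do not say how many mice each culture came from.

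No test can be made between single arrays, so no p-value is given and the precision is limited by the number of arrays. Signals are intensities scaled so that the 75th percentile of both arrays is the same, and the log2 ratio is GM-CSF + IL-6 minus GM-CSF ONLY. The error beside a log2 ratio is a technical SD, taken from the spread over spots of 266 probes printed at least 5 times, at the same level of signal. It holds no error of culture, extraction or labelling. No spot was saturated, and the arrays lay on 1 slide and were scanned together. A signal depends on the probe, so signals of different probes are not compared as amounts of RNA.

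Ly6 proteins fold around a fixed pattern of disulfide bonds, the three-finger fold shared with the urokinase receptor. Most are held in the outer layer of the cell membrane by a glycosylphosphatidylinositol (GPI) anchor. In mouse bone marrow Ly6 proteins are used to tell cells apart. Ly6C marks monocytes, Ly6G marks neutrophils, the Gr-1 antibody binds both, and Sca-1, the product of Ly6a, marks stem cells. Interferons are known to induce several genes of the family, among them Ly6a, Ly6c and Ly6e.

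Of the 5 measured members, 3 had nearly equal signals in both cultures and 2, Ly6i and Ly6k, were lower with IL-6. A log2 ratio of at least 0.32 in size, which puts the brighter signal at least 25% above the dimmer one, is called a size of 0.32 below. Both Ly6i and Ly6k passed it, where 3.55% of all measured genes passed it downward and 7.72% in either direction. No member was at least 2-fold apart, where 0.383% of measured genes were. The log2 ratios of the members ran from -0.45 to 0.01 with a median of -0.03, and the median over all measured genes was -0.02.

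**Figure D1:**
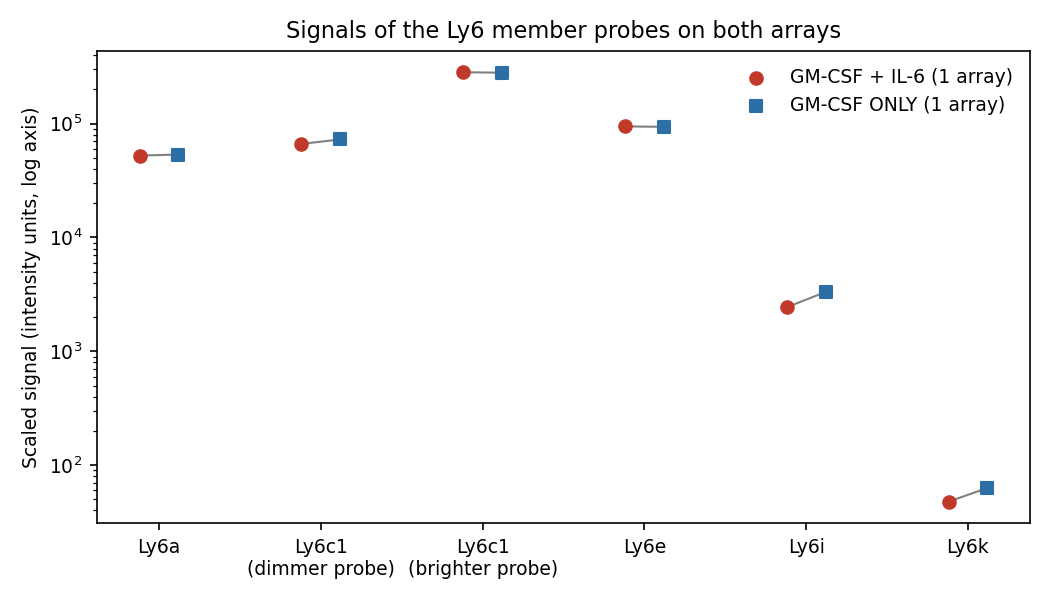
Scaled signal (intensity units, log axis) of each member probe in the GM-CSF + IL-6 culture (circles) and the GM-CSF ONLY culture (squares), 1 array each. The pairs of points are nearly level for Ly6a, Ly6e and the brighter Ly6c1 probe, while the Ly6i probe had 2438 against 3323 and the Ly6k probe 47.8 against 63.1.

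Ly6i, a GPI-anchored antigen of the family close in sequence to Ly6C, differed by more than its technical error. Its scaled signal was 2438 in the GM-CSF + IL-6 culture and 3323 in the GM-CSF ONLY culture. The signals as deposited, before scaling, were 2293 with IL-6 and 3533 with GM-CSF only, so the order is the same on both scales. The log2 ratio was -0.45 ± 0.05 (technical SD, 1 spot per array), which is 1.36-fold lower with IL-6. Of the 13843 measured genes, 192 (1.39%) had a lower log2 ratio than Ly6i. With the measured genes put in 4 equal classes by signal, Ly6i is in class 3 from the bottom, where log2 ratios had an SD of 0.13 and 1.16% of genes were lower by a size of 0.32. The Ly6i log2 ratio stayed between -0.49 and -0.40 in all 10 other processing settings.

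Ly6k, known for its role in mouse sperm, where it works with the testis protein Tex101, was near background. Its mean spot signal before correction was 71.9 with IL-6 and 91.2 with GM-CSF only, over local backgrounds of 57 and 55. The scaled signals were 47.8 in the GM-CSF + IL-6 culture and 63.1 in the GM-CSF ONLY culture. The log2 ratio was -0.40 ± 0.23, so the technical error is large beside the difference. In the lowest 25% of genes by signal, to which Ly6k belongs, 10.1% were lower by a size of 0.32. With normexp background correction the Ly6k log2 ratio was -0.11, short of that size. The Tex101 probe was not well above background on either array.

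Ly6a, which encodes Sca-1, did not differ beyond its technical error. Its scaled signal was 52497 in the GM-CSF + IL-6 culture and 53512 in the GM-CSF ONLY culture. The log2 ratio was -0.03 ± 0.05, and 48.3% of measured genes had a lower one. Ly6e, which encodes an antigen known to hinder the entry of coronaviruses, had scaled signals of 94634 with IL-6 and 93819 with GM-CSF only. Its log2 ratio was 0.01 ± 0.05, and 59.6% of measured genes had a lower one. Both signals therefore lay within the spot error of each other. The small positive Ly6e ratio turned to -0.03 after quantile normalization and in the authors' matrix.

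Ly6c1, one of the paired genes for the Ly6C antigen, was measured by 2 probes that did not give the same result. The brighter probe had scaled signals of 283059 with IL-6 and 280144 with GM-CSF only, a log2 ratio of 0.01 ± 0.05. The dimmer probe had 66427 with IL-6 and 72638 with GM-CSF only, a log2 ratio of -0.13 ± 0.05. One probe was thus level and the other slightly lower with IL-6, and neither reached a size of 0.32. The brighter probe turned to -0.03 after quantile normalization and in the authors' matrix, and after normexp correction the probes moved further apart, to 0.07 and -0.19. The brighter probe lay above the signals of the probes that gave the technical error, which reached 162466, so its error is taken from dimmer spots. Ly6c1 and Ly6c2 are near-identical copies and the files hold no probe sequences, so the share of this signal that comes from Ly6c2 transcripts could not be told apart.

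The start regions of Ly6c1, Ly6c2 and Ly6g are shown because they let a reader see how alike the genes are behind the marker antigens Ly6C and Ly6G, of which Ly6c1 alone had a mapped probe. They come from RefSeq (GRCm38.p6), which gave windows of 300 bases for 3 of the 7 members in the table used, 6 windows in all, each running from 250 bases before a transcript start to 50 after it. The windows printed are the set of 3, with a window from each gene, that had the most 15-base stretches found in all 3. Where sets were equal, the windows with the lower coordinates were taken. Each is printed 5′ to 3′ on the gene's strand. Capitals mark the runs of at least 15 bases found in all 3 windows.
Ly6c1, chr15:75048614-75048913, minus strand: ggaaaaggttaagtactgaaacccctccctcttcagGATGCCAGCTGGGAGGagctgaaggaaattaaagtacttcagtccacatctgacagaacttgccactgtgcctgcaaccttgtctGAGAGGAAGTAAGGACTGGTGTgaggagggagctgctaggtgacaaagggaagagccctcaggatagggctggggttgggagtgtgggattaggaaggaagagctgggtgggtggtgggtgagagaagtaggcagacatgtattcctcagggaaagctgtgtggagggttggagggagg
Ly6c2, chr15:75111888-75112187, minus strand: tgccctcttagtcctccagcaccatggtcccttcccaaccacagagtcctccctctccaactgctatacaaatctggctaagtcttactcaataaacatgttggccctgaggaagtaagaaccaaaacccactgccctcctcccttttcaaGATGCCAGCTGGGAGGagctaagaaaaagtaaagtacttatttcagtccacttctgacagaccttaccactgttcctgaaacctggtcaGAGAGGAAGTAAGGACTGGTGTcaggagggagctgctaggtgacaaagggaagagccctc
Ly6g, chr15:75155079-75155378, plus strand: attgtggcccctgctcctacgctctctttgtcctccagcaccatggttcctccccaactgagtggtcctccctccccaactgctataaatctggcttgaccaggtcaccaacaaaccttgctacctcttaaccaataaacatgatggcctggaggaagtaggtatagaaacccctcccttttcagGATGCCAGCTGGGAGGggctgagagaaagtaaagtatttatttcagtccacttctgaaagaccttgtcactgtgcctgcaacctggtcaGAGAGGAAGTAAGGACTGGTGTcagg

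The 3 windows shared 2 such runs, of which the longer had 22 bases. Over the aligned bases of the printed windows, 89.3% were identical between Ly6c1 and Ly6c2 (158 of 177). The share was 87.0% between Ly6c1 and Ly6g (127 of 146) and 86.0% between Ly6c2 and Ly6g (221 of 257). The other windows were not aligned. The unprinted Ly6c1 window has a run in common with the printed Ly6g window that is longer than 22 bases, so the capitals do not show all the likeness. A search of both strands for the core of the interferon response element, which is TTTC, any 2 bases and TTTC, and for the STAT site core, TTCNNNGAA, found neither in any of the 6 windows. These letters are in 3.44% and 8.30% of all 32851 windows of the table. The Ly6i and Ly6k windows were not analysed here.

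The members lie in 1 cluster on chromosome 15, and the genes beside it were read in the same way. Only Gml2, a gene of the same superfamily, and Ly6m lay between the members and were measured, with log2 ratios of -0.15 ± 0.23 and -0.27 ± 0.23 at low signal. Of the nearest 10 measured genes before the cluster, 7 had higher signals with IL-6 and 3 lower, with a median log2 ratio of 0.05. Of the nearest 10 after it, 6 were higher and 4 were lower, and their median was 0.08. Of all measured genes, 43.8% were higher. Slurp1, Slurp2, Lynx1, Ly6d, Lypd2, Ly6f, Ly6h and Gpihbp1 among these neighbours are counted again in the superfamily list below. The lower Ly6i thus stood between neighbours that were level, since Ly6e before it had 0.01, Ly6a after it -0.03, and Ly6f, a close relative further along, -0.06 ± 0.05. At the other end Ly6d, a marker of early B lineage cells, had scaled signals of 6009 with IL-6 and 6000 with GM-CSF only, a log2 ratio of 0.00 ± 0.05.

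**Figure D2:**
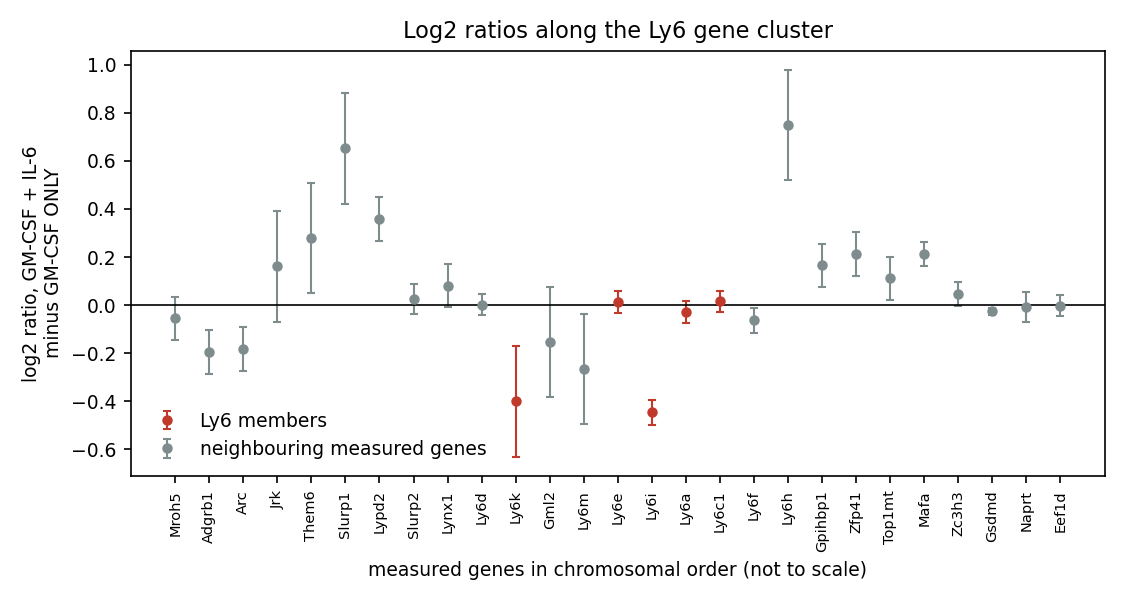
Log2 ratio (GM-CSF + IL-6 minus GM-CSF ONLY, 1 array each) of the measured members and the measured genes beside them, in chromosomal order and not to scale, with technical SDs as bars. Ly6i at -0.45 stands apart from Ly6e at 0.01 and Ly6a at -0.03 beside it, and the wide bars belong to dim probes such as Ly6k, Slurp1 and Ly6h.

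The rest of the superfamily was mostly dim or level in these cells. Of 41 other Ly6 and urokinase receptor type genes, 36 had a uniquely mapped probe and 20 were measured on both arrays. The other 16 did not reach that on both, among them Psca, which was above it with GM-CSF only (scaled signals 16.5 with IL-6 and 23.1 with GM-CSF only). Of the 20 measured, 14 were higher with IL-6 and 6 lower, where 43.8% of all measured genes were higher, and the median log2 ratio was 0.05. A size of 0.32 was passed upward by 4 of them and downward by 1, and by 4.17% and 3.55% of all measured genes.

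The genes of this list that were furthest apart had low signals, where the spot error is wide. Ly6h, known from the brain, had scaled signals of 166.9 with IL-6 and 99.3 with GM-CSF only (log2 ratio 0.75 ± 0.23). Cd59a, which guards cells against the complement pore, had 30.2 with IL-6 and 18.6 with GM-CSF only (0.70 ± 0.23). Slurp1, a secreted skin protein, had 35.1 with IL-6 and 22.3 with GM-CSF only (0.65 ± 0.23). These 3 probes and that of Ly6g6f, at -0.52 ± 0.23, were all in the lowest 25% of genes by signal. Lypd2, with a narrower error, had 442.4 with IL-6 and 344.9 with GM-CSF only (0.36 ± 0.09), and Spaca4, a sperm protein, had a log2 ratio of 0.31 ± 0.23. Plaur, the urokinase receptor of myeloid cells, was bright and level, at 30766 with IL-6 and 29537 with GM-CSF only (0.06 ± 0.05). Cd177, a neutrophil antigen, had 3456 with IL-6 and 3714 with GM-CSF only (-0.10 ± 0.05). Plaur, Cd177, Psca and Tex101 were named after their values were seen.

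**Figure D3:**
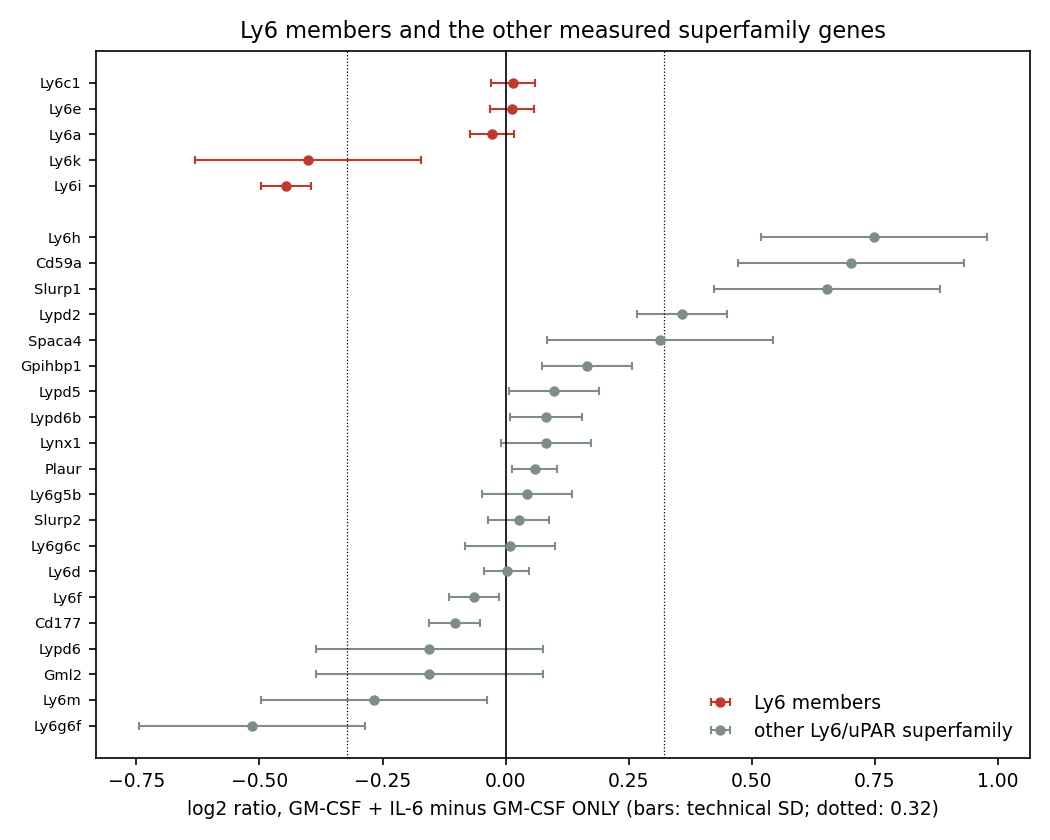
Log2 ratio (GM-CSF + IL-6 minus GM-CSF ONLY, 1 array each) of the 5 measured members (top) and of 20 other measured superfamily genes (below), with technical SDs as bars and dotted lines at a size of 0.32. Ly6i lies past the lower line with a narrow bar, while Ly6k, Ly6h, Cd59a, Slurp1 and Ly6g6f have wide bars.

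The genes that build and attach the GPI anchor were close to level. Of 30 such genes, 28 were measured, of which 11 were higher with IL-6 and 17 lower, where 56.2% of all measured genes were lower. They had a median log2 ratio of -0.03 (0.03 after normexp correction) and a range from -0.37 to 0.38. A size of 0.32 was passed upward by 2 and downward by 1, all dim, namely Pigz (0.38 ± 0.23), which adds a mannose, Pigl (0.33 ± 0.23), which removes an acetyl group, and Gpld1 (-0.37 ± 0.23), a phospholipase that cuts the anchor. Of all measured genes 4.17% passed that size upward and 3.55% downward, and of the lowest 25% by signal 12.9% upward and 10.1% downward. Pign had 0.29 ± 0.06 on one probe and 0.05 on its other probe. Pigx, a subunit of the first mannosyltransferase, had -0.23 ± 0.05, with -0.14 on its other probe, and Pigc had -0.24 ± 0.23. Dpm1, which was not dim, had -0.15 ± 0.05 on the probe used and -0.33 on its other probe, past a size of 0.32 downward. Gpaa1, a subunit of the enzyme that joins the anchor to the protein, had 0.06 ± 0.09 and was named after its value was seen.

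The listed interferon-stimulated genes were lower with IL-6. This list was chosen with earlier results of these data known, so its counts are a description only. All 24 listed genes were measured and had negative log2 ratios on the brighter probe of each, where 56.2% of all measured genes were negative. These ran from -0.67 to -0.13 with a median of -0.31. A size of 0.32 was passed by 11 of them, and downward by 3.55% of all measured genes. Cmpk2 had -0.316 on this probe and 0.03 on its other probe, while the other second probes measured for the list were negative. The 3 furthest apart were Ifi44, Ifit3 and Ifit1. The log2 ratios of Ly6i, at -0.45, and of the dim Ly6k, at -0.40, were inside the range of these brighter probes. The dimmer Ly6c1 probe, at -0.129, was at the upper end of that range, beside Bst2 at -0.126. Ly6a, at -0.03, Ly6e, at 0.01, and the brighter Ly6c1 probe, at 0.01, were outside that range, though below the other Cmpk2 probe. The part of this in the member values was not tested.

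Most monocyte markers were somewhat lower with IL-6, and neutrophil markers lay on both sides of 0. In bulk RNA, fewer cells of a type and less RNA per cell cannot be told apart. All 12 monocyte markers were measured, 2 higher with IL-6 and 10 lower, where 56.2% of all measured genes were lower. Log2 ratios ran from -0.58 for Cx3cr1, then -0.43 for Ms4a6c and -0.32 for Fn1, up to 0.11, with a median of -0.11. Csf1r had -0.25 on the probe used, and -0.20 and 0.26 on its others. F13a1 had 0.01, and -0.19 on its other probe. Ms4a4c had -0.005, and -0.27 and -0.28 on its others. Cx3cr1 and Mpeg1 were lower on each of their probes. The summed scaled signal of the monocyte markers, which the brighter probes weigh on most, was 493713 with IL-6 and 492560 with GM-CSF only. Without Chil3, the brightest, it was 182232 with IL-6 and 204095 with GM-CSF only. All 12 neutrophil markers were measured, 4 higher and 8 lower, again where 56.2% of all measured genes were lower. Their log2 ratios ran from -0.25 for Mmp8 to 0.14, with a median of -0.04. Their summed signal was 1703430 with IL-6 and 1649460 with GM-CSF only, and without S100a9, the brightest, 1233110 with IL-6 and 1222430 with GM-CSF only. Granulocyte and monocyte markers were thus present in both cultures, and bulk RNA does not tell which cells carried them. The part of these lists in the member values was not tested.

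Ly6a and Ly6c1 are also known from stem, lymphoid and endothelial cells. All 8 stem and progenitor markers were measured, with log2 ratios from -0.26 for Procr to 0.20 for Kit and a summed signal of 11646 with IL-6 and 11668 with GM-CSF only. Of 10 T and NK cell markers with a probe, 8 were measured, from -0.22 to 0.16, with a summed signal of 15722 with IL-6 and 14397 with GM-CSF only, and the NK cell genes Klrb1c and Ncr1 were not well above background. Of 7 endothelial and stromal markers 5 were measured, with a summed signal of 17370 with IL-6 and 15738 with GM-CSF only, and Cdh5 and Cxcl12 were not well above background. Without Kdr, the brightest of them, the sum was 5541 with IL-6 and 4714 with GM-CSF only. Kdr itself had a log2 ratio of 0.10 ± 0.05 on this probe and -0.34 on its other probe. Most of the remaining sum was Lepr, at 4894 with IL-6 and 4148 with GM-CSF only (0.24 ± 0.04, and 0.65 on its other probe). Sparc, a matrix protein gene of this list, had 100.4 with IL-6 and 36.0 with GM-CSF only (log2 ratio 1.48 ± 0.23). All 7 B and plasma cell markers were measured, from -0.56 for Jchain, a dim probe, to 0.19, with a summed signal of 24184 with IL-6 and 24777 with GM-CSF only. Their part in the member values was not tested.

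The position of a spot on the array was checked for each member. The median log2 ratio of the measured spots within 10 rows and 10 columns lay between -0.04 and 0.04 for all 6 member probes. Around the Ly6i probe it was 0.04 over 244 spots and around the Ly6k probe -0.01 over 240 spots. With that local median subtracted, Ly6i had a log2 ratio of -0.49 and Ly6k -0.39. The log2 ratios of the surrounding spots had an SD of 0.20 around each of these 2 probes. Both differences thus kept their sign against the surrounding spots. For Ly6k the technical SD of 0.23 stays large beside the difference.

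**Figure D4:**
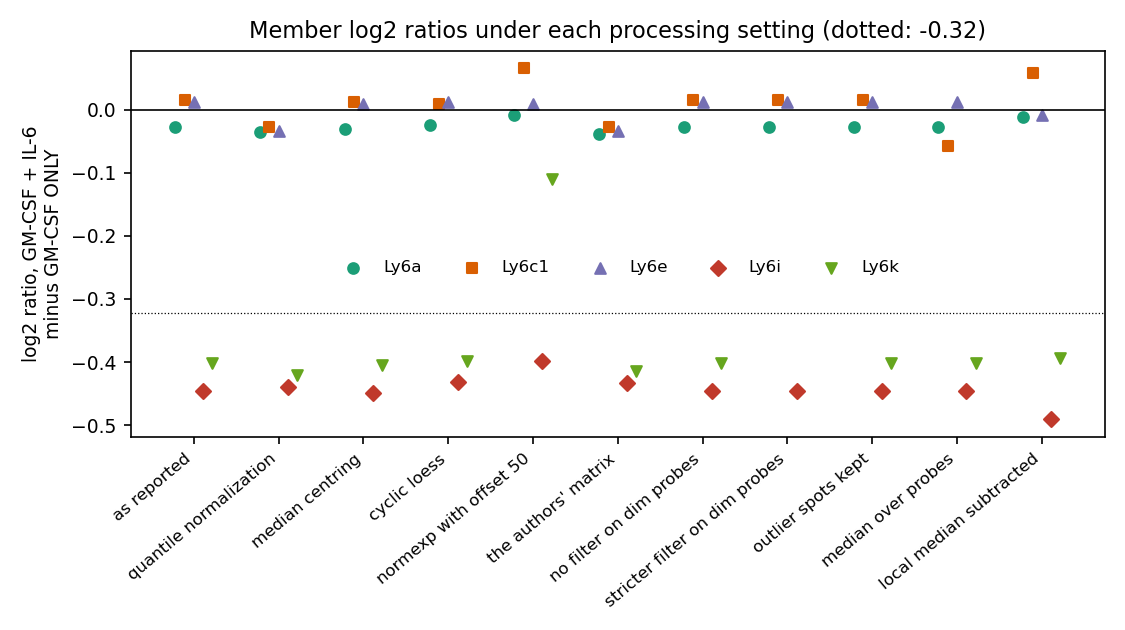
Log2 ratio (GM-CSF + IL-6 minus GM-CSF ONLY, 1 array each) of each measured member as reported and in 10 other processing settings, with a dotted line at -0.32. Ly6i stays between -0.49 and -0.40, Ly6k moves to -0.11 with normexp and is left out by the stricter filter, and Ly6a, Ly6c1 and Ly6e stay near 0.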

How the data were processed

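The samples were 2 cultures with 1 single-channel Cy3 array each. Per the file headers, the authors extracted spot intensities in Agilent Feature Extraction (version 10.7.1.1), which detrended them in space and by signal and did not scale them between arrays. The deposited series matrix holds log2 values of 55821 probes whose sorted columns differ by at most 0.00136, so they are quantile-normalized, by software not given in the sources used here.

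The value used was log2 of the processed intensity minus the 75th percentile of the array (486.2 with IL-6, 549.7 with GM-CSF only). Control and outlier spots were removed, and repeated spots averaged per probe. A probe was measured where at least 50% of its spots were well above background. Each gene took its brighter measured probe. Probes were named through RefSeq accessions (GRCm38.p6), of which 26577 of 28109 matched 1 symbol. The technical SD is pooled in 5 bins of signal. Called genes are those past a log2 ratio of 0.32 in size, or past 2-fold.

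The members, lists and sizes were chosen with earlier results of these data known. Named were all members, up to 6 genes by size of log2 ratio for the superfamily and GPI lists, up to 3 for marker and interferon lists, and genes beside the cluster. Some other list genes were named for a second probe, their share of a sum, the end of a range or a lack of signal. Likeness of pattern was not ranked, since 2 arrays give 1 ratio per gene. Tools were Python 3.11.15, numpy 2.4.6, pandas 2.3.3, R 4.3.3, limma 3.58.1 and matplotlib 3.10.9. Alternatives were cyclic loess, quantile normalization, centring on the median, the authors' matrix, normexp (offset 50), keeping outlier spots, dropping or tightening the filter on dim probes, the median over probes of a gene, and subtraction of the local median.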

Additional observations from a re-analysis of the deposited data

How the results depend on the processing

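The member log2 ratios, the counts of members and the medians of the members, the other superfamily genes and the GPI anchor genes were recomputed in 10 other settings, with 9 for Ly6k. The interferon, marker and neighbouring gene values were not recomputed. The count of members past a log2 size of 0.32 was 2 as reported and 1 with normexp correction. It was also 1 with the tighter filter on dim probes, under which Ly6k was not among the genes kept. The share of all kept genes past that size, in either direction, was 7.72% as reported. This share was also smaller in those 2 settings, at 3.07% with normexp correction and 2.62% with the tighter filter. With no filter on dim probes it was 16.4%, and the count of members was 2. The count of members at least 2-fold apart was 0 in every setting. The median log2 ratio of the members ran from -0.06 to -0.01 and that of the other superfamily genes from 0.04 to 0.09, and that of the GPI anchor genes was -0.03 as reported and 0.0294 with normexp. The cause of the normexp differences was not tested. Among single members, Ly6a and Ly6i moved by less than their technical SD in all 10 settings. Ly6c1 ran from -0.06 (median over its probes) to 0.07, Ly6e from -0.03 to 0.01 and Ly6k from -0.42 to -0.11. Neither Ly6i nor Ly6k changed direction in a setting. No scaling moved the median of all genes by more than 0.1. Signal over background limits what can be said of Ly6k. No paired analysis was possible because the groups hold 1 array each.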
